A study of Mus musculus with 6 samples.

Results

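The clustered replication-dependent histone genes were taken as the genes whose symbol in the deposited table starts with Hist, a cluster number from 1 to 4 and the letter h. There were 70 of them among 50600 genes. The Hist1 cluster on chromosome 13 held 56, the Hist2 cluster on chromosome 3 held 10, the Hist3 cluster on chromosome 11 held 3 and Hist4 on chromosome 6 held 1. By the class of histone they were named for, 6 were H1, 20 H2A, 19 H2B, 12 H3 and 13 H4, and 67 were annotated as protein-coding and 3 as pseudogenes. Their counts were compared between macrophages of pancreatic islets and macrophages of epididymal white adipose tissue (EpiWAT), with 3 libraries of each. Both kinds came from the same C57BL/6J males, 12 weeks old, on a chow diet and with no treatment or genetic change named, and were sorted as live, DAPI-negative CD45+ F4/80+ CD64+ cells. The libraries are numbered 2, 4 and 6 in both tissues, and equal numbers were read as equal animals. The labels do not say how many mice went into each library. Each library was made from 10 ng of total RNA depleted of ribosomal RNA and primed at random, not from poly(A) tails, so transcripts without a tail can be counted.

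Core histones H2A, H2B, H3 and H4 form the protein spool around which DNA is wrapped, and the linker histone H1 binds the DNA between spools. The clustered genes supply these proteins mainly while a cell copies its DNA in S phase, and their messenger RNAs are unusual in having no introns to splice and in ending at a conserved stem-loop in place of a poly(A) tail. The stem-loop is bound by SLBP, cutting beyond it is directed by the U7 small nuclear RNA, and the messages are degraded when replication stops. Replication-independent variants such as H3f3a, H3f3b and H1f0 come from single genes with poly(A) tails. Most tissue-resident macrophages are outside the cell cycle at any moment.

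The stem-loop is the feature that most members share and that the naming rule did not use. It was found by its 16-base pattern in the annotated transcripts (GENCODE M21) of 46 of the 70 members, and the other 24 annotations hold no match. The commonest form, found in 26 members, is printed here for the 3 members that passed the test between tissues and, for comparison, a variant loop and an H4 stem are shown. The stem-loop is in capitals with the neighbouring bases in lower case.
Hist1h1c: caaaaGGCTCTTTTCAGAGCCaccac
Hist1h1e: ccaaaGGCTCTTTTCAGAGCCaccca
Hist1h2ag: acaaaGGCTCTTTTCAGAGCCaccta
Hist2h2ac: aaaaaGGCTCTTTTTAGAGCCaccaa
Hist1h4d: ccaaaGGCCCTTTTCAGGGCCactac
The H4 genes differ from the other classes in the stem. All 12 H4 members with a match differ from the commonest form, against 1 of 4 in H1, 1 of 11 in H2A, 2 of 10 in H2B and 4 of 9 in H3. The 12 H4 genes differ in the paired stem, whereas the other 8 differ in the loop alone. Many annotated transcripts run well past the stem-loop. Of the 46, 22 end within 60 bases of it and 18 continue for at least 300 bases. The longest of the H1 transcripts, Hist1h1d, continues for 4884 bases, Hist1h1e for 1153 and Hist1h1c for 840.

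The start regions of the H1 genes are printed because H1 was the class in which every tested member was estimated lower in islet macrophages. Each stretch is 300 bases from RefSeq (GRCm38.p6), from 250 bases before the transcript start to 50 after it, at chr13:23738557-23738856 on the plus strand for Hist1h1c, chr13:23622509-23622808 on the minus strand for Hist1h1e, chr13:23554782-23555081 on the plus strand for Hist1h1d, chr13:21780576-21780875 on the minus strand for Hist1h1b and chr13:23763418-23763717 on the plus strand for Hist1h1a. Capitals mark CCAAT, the TATA box TATAAA and the H1 box AAACACA, a motif known from H1 promoters, each on either strand.
Hist1h1c: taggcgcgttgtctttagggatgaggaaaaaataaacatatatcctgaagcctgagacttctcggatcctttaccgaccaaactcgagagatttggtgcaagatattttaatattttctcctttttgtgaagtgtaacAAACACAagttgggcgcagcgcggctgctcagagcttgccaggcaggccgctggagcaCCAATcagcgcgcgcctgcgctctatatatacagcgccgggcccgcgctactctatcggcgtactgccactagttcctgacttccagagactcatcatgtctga
Hist1h1e: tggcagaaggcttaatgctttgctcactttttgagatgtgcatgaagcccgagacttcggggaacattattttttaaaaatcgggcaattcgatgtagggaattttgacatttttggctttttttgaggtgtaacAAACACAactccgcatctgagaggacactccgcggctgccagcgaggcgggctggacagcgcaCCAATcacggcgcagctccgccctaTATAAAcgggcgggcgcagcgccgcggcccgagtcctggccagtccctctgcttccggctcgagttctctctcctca
Hist1h1d: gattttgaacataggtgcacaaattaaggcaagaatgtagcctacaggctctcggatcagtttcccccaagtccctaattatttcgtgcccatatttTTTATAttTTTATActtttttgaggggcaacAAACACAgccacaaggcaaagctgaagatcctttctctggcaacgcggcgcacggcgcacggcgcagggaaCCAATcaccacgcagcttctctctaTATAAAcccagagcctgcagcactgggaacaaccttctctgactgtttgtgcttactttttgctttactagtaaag
Hist1h1b: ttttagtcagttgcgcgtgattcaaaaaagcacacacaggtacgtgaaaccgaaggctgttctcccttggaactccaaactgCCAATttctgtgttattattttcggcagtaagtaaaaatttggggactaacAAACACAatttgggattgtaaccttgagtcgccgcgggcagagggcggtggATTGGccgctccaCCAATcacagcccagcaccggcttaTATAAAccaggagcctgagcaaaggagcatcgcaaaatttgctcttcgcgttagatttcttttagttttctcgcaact
Hist1h1a: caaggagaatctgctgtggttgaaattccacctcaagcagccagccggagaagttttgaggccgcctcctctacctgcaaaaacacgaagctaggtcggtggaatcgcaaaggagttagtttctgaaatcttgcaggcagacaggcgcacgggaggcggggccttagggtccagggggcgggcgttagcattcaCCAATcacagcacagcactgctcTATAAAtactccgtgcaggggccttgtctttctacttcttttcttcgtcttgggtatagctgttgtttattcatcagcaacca
The CCAAT box occurred in 6 of 6 H1 promoters, the H1 box in 5 of 6 and the TATA letters in 4 of 6, and these motifs did not overlap each other in the printed stretches. Hist1h1a was the H1 gene without an H1 box. The CCAAT box nearest the start began 51 to 56 bases before it in the 5 printed promoters, at position -54 in Hist1h1c and -52 in Hist1h1e. In the 4 that held it, the H1 box began at -112 in Hist1h1c, -115 in Hist1h1e, -117 in Hist1h1b and -122 in Hist1h1d. Over all 32851 RefSeq promoters of the same length, 37.4% held the CCAAT box, 13.6% the TATA letters and 7.18% the H1 box. A RefSeq promoter was matched for 62 of the 70 members, of which 53 held the CCAAT box, 35 the TATA letters and 9 the H1 box. The CCAAT box was in every H2A, H2B and H3 promoter matched but in 3 of 12 for H4. The octamer ATTTGCAT, known from H2B promoters and searched on both strands, was in 7 of 18 H2A and 7 of 16 H2B promoters and in none of H1, H3 or H4, against 1.74% of all promoters. A match is a description of letters and not evidence of binding.

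Total counts ranged from 4089980 to 9235591 per library, and 45 of the 70 members passed the filter on low counts in edgeR. The genes of the sorting markers, Ptprc, Adgre1 and Fcgr1, were present in all 6 libraries, with adjusted p = 0.0639, 0.265 and 0.264 between tissues in edgeR's quasi-likelihood test. Of 15 listed macrophage genes, these included, 2 were called higher and 3 lower in islet, with log2 differences from -3.05 to 4.71. Markers of several other cell types moved with the tissue, while summed B cell, neutrophil and erythroid markers overlapped between tissues. In CPM (counts per 1000000, scaled by TMM), summed fibroblast and mesothelial markers were 0.605 to 5.12 in islet and 87.8 to 384 in fat libraries, and 5 of 8 had no islet count, Pdgfra and Col1a1 among them. Summed adipocyte markers were 11.2 to 28.0 against 76.9 to 276, and 6 of 8 had no islet count, Adipoq and Plin1 among them. Summed endothelial markers were 7.45 to 23.3 against 29.5 to 171, with 3 of 8 at 0 in islet, and T and NK cell markers 6.59 to 16.3 against 22.1 to 39.1, with 9 of 12 at 0 in islet, Cd3e among them. Islet hormone and beta cell markers were 3437 to 9424 in the islet and 0 to 6.24 in the fat macrophage libraries. Dendritic cell markers were 147 to 312 in the islet and 123 to 125 in the fat macrophage libraries, none at 0 in islet, with 2 of 7 tested higher and 2 lower. Acinar markers were 5.85 to 73.7 against 1.61 to 2.65, with 7 of 8 at 0 in fat. The part of these cells in the histone differences below was not tested.

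Near-identical copies limit what can be said about single core histone genes. In annotated transcripts, the median share of 50-base stretches also found in another gene was 73.2% for H2A, 62.0% for H3, 44.1% for H2B and 39.5% for H4, but 1.13% for H1. Among the tested members, 19 of 45 shared at least 50% of their stretches, so reads from them could have been split between copies or dropped, depending on how the authors counted reads that map to several places, which the labels do not state. Exons of 15 tested members also overlap another gene, and the labels do not state the strand setting of the counting. H1 counts are therefore the ones least touched by copies, with Hist1h1c at 8.54%. Hist1h1e is the H1 exception at 32.0%, since 496 of its 1930 exon bases lie within the annotated Hist1h2be and a predicted gene on the same strand.

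**Figure D1:**
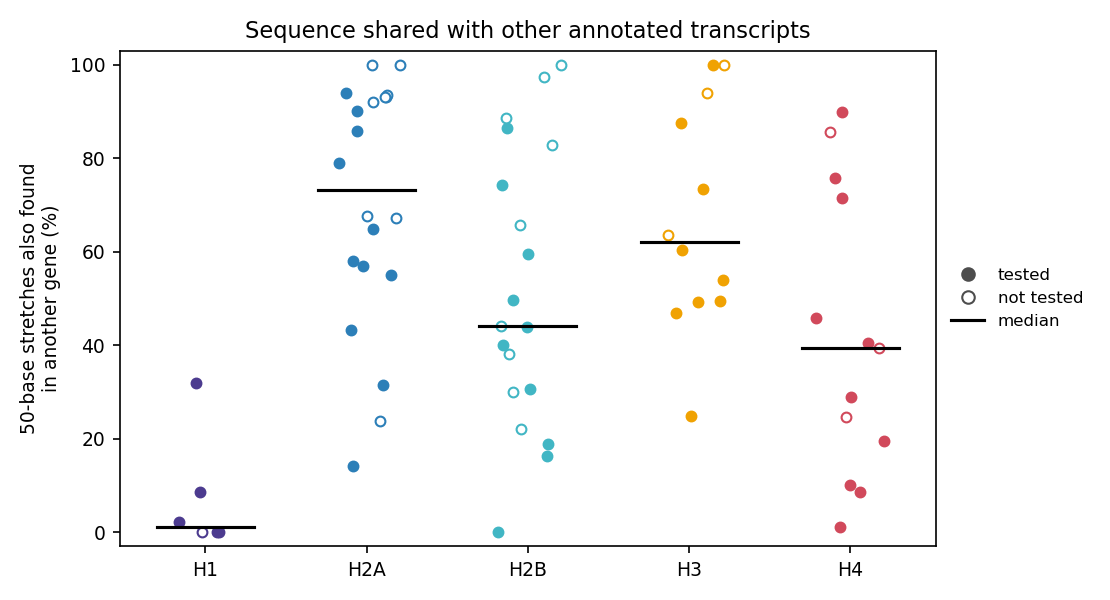
Share of 50-base stretches of each member's annotated transcript that also occur in another gene, in percent, by histone class, with tested members filled, untested members open and the class median as a line. H1 genes sit near 0 except Hist1h1e at 32.0%, while the H2A median is 73.2%.

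Summed over the 70 members, histone reads were fewer in islet than in fat macrophages. They made up 280 in every 1000000 counts (parts per 1000000, ppm) in islet library 2 (exact 95% binomial interval 267 to 294), 312 in islet library 4 (296 to 330) and 303 in islet library 6 (291 to 317). In fat they were 477 in library 2 (463 to 492), 955 in library 4 (933 to 978) and 509 in library 6 (493 to 525). The tissues did not overlap, and the intervals cover counting error only. The means were 299 ± 16.6 and 647 ± 267 (SD, n = 3 per tissue), a fat to islet ratio of 2.17. Fat library 4 stood well above the other fat libraries and without it the ratio was 1.65. On the TMM-scaled CPM scale the ratio was 1.84, and 1.33 without fat library 4. In bulk libraries, fewer cells in S phase and less histone RNA per cell cannot be told apart.

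H1 genes carried the largest part of both the reads and the gap. Summed H1 reads were 107, 123 and 98.2 ppm in the islet and 217, 394 and 267 in the fat macrophage libraries, a ratio of 2.68. H2B reads were 27.0, 39.6 and 32.6 against 56.8, 122 and 58.0, and H4 reads 66.0, 45.0 and 45.9 against 88.6, 183 and 74.8. For these 3 classes no islet library reached a fat library on this scale, while on the TMM-scaled CPM scale H4 overlapped. The tissues overlapped for H2A, at 57.1, 71.1 and 78.7 against 80.2, 169 and 65.4, and for H3, at 23.4, 33.5 and 48.0 against 34.6, 87.5 and 43.8. On the TMM-scaled CPM scale the mean of fat libraries 2 and 6 divided by the islet mean was 1.77 for H1, 1.40 for H2B and 1.24 for H4, but 0.857 for H2A and 0.931 for H3, so the direction for H2A and H3 turned without fat library 4. H1 genes took 36.6 ± 3.76% of member counts in islet and 46.4 ± 5.64% in fat (SD, n = 3 per tissue). H2A took 23.0 ± 2.79% in islet and 15.8 ± 2.57% in fat.

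**Figure D2:**
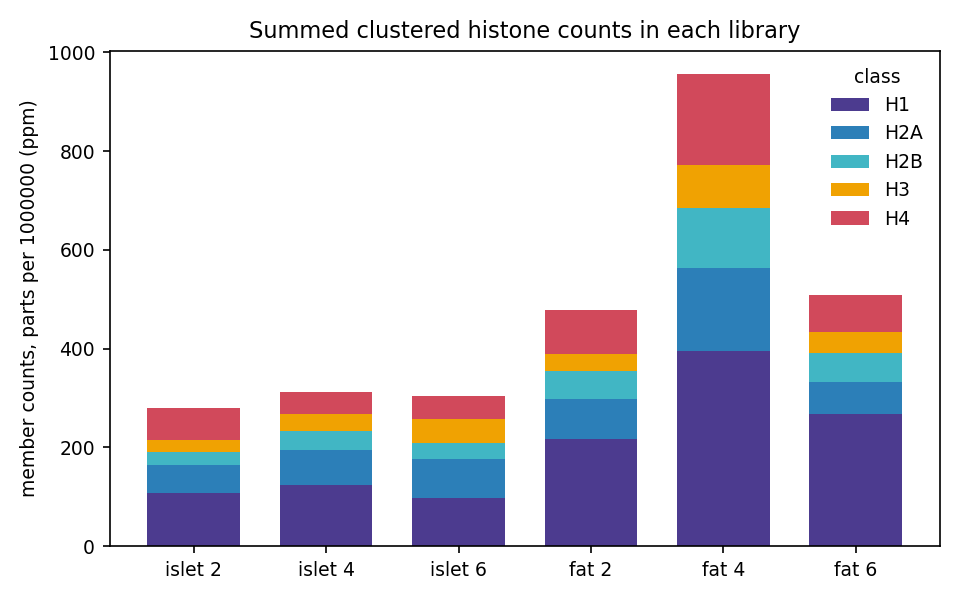
Summed reads of the 70 clustered histone genes in each library, in parts per 1000000 counts (ppm), stacked by histone class. The 3 islet libraries stand between 280 and 312, fat libraries 2 and 6 at 477 and 509, and fat library 4 at 955.

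Gene by gene, 3 members were lower in islet macrophages and 0 higher at an adjusted p under 0.05 in edgeR's quasi-likelihood test with Benjamini-Hochberg adjustment over 12152 genes. The 3 were Hist1h1c, Hist1h1e and Hist1h2ag. Of all genes tested, 19.4% were called, 10.5% as lower and 8.97% as higher, so 3 of 45 members is below that background. At an unadjusted p under 0.05 there were 8 members lower and 0 higher. The share of all genes at that threshold was not counted. The 8, and the unadjusted counts by class and list below, therefore have no background and are not read as an excess. DESeq2 and limma voom also called 0 higher. The count of calls was 0 without fat library 4 or fat library 6, 1 without islet library 2 and 9 without islet library 4. The log2 estimates, islet minus fat, were negative for 37 of the 45 tested members and positive for 8, with a median of -0.80, against 49.8% negative and a median of 0.01 over all genes. Fat library 4 held the highest fat value for 44 of the 45, and the tally was not repeated without it. Without that library the estimate turned positive for members including Hist1h2ac (0.22), Hist1h2ai (0.03), Hist1h2ak (0.13) and Hist1h2an (0.68). The 37 therefore include members whose sign depended on that library. For Hist1h1c the estimate without it was still negative, at -1.10. With Hist1h2ag set at its bound given below, the member median was again -0.80. Members at 0 in islet could pass the filter through fat alone, so these counts describe the members that passed and not all 70. Of the 45, 14 had no count in at least 1 islet library and 1 had none in a fat library. Total counts were 4089980 to 6923475 in the islet and 7450890 to 9235591 in the fat libraries. The shares of such zeros over all genes tested were not counted, and the part of depth in them was not tested.

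Each islet library was set beside the fat library of equal number, read as the same animal though the number is also the batch. In islet, 18 of 45 members were lower in all 3 pairs (40.0%) and 1 was higher in all 3 (2.22%). Over all genes tested these shares were 28.6% and 24.6%. The H1 genes were lower in all 3 pairs in 5 of 5 cases. The core classes were mixed, with 4 of 11 for H2A, 5 of 10 for H2B, 1 of 9 for H3 and 3 of 10 for H4.

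**Figure D3:**
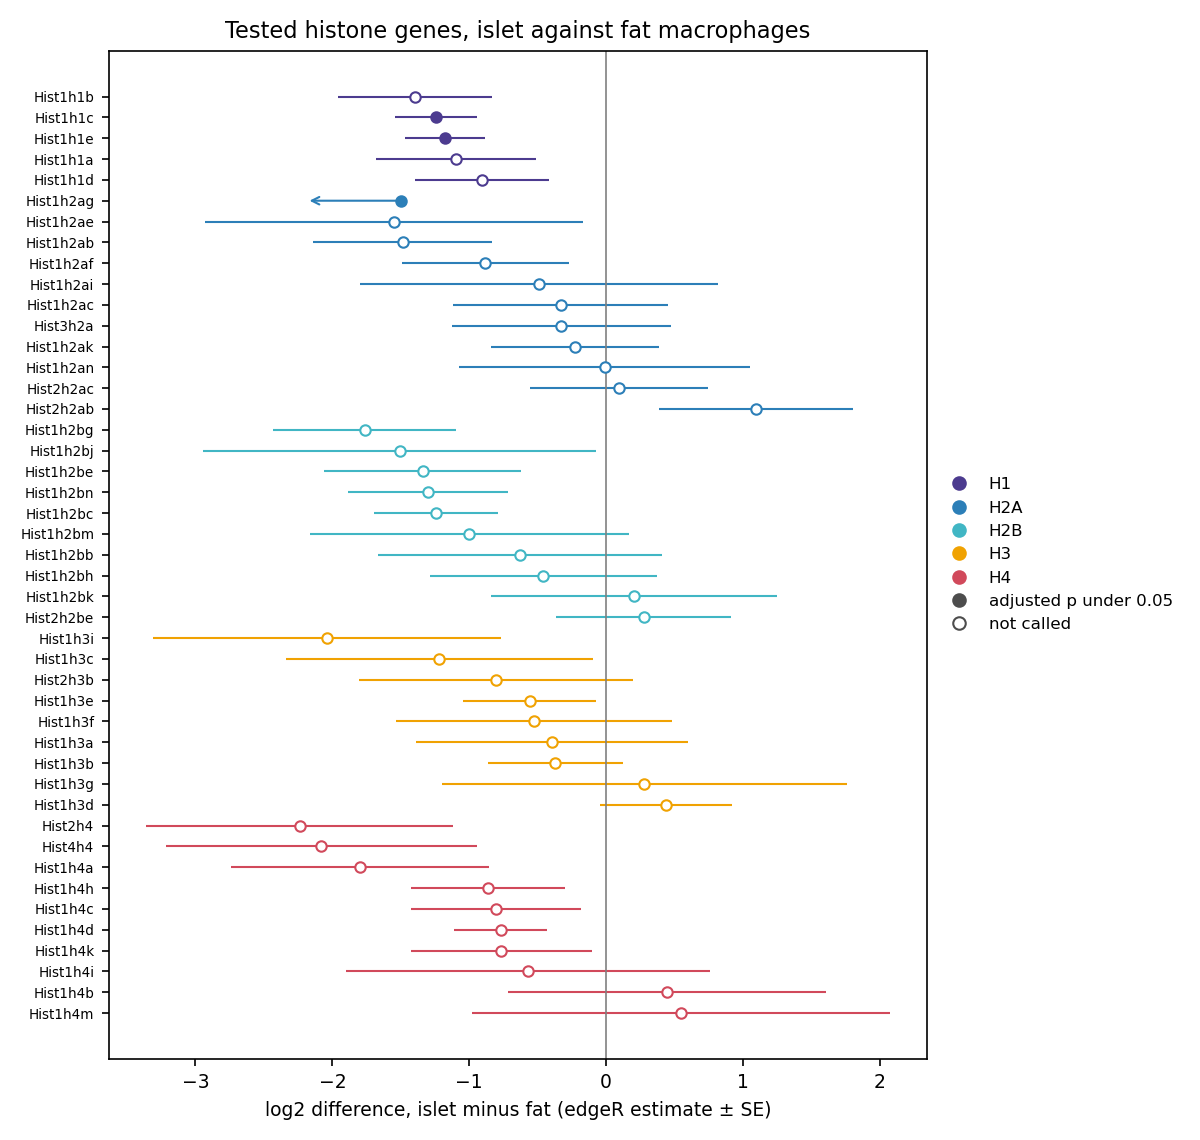
Estimated log2 difference, islet minus fat, with its standard error for the 45 tested members, grouped by histone class and filled where the adjusted p was under 0.05. All 5 H1 estimates lie left of 0, between -1.40 and -0.91, and Hist1h2ag is drawn at its bound with an arrow because it had no islet count.

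Hist1h1c encodes a somatic linker histone and was the member with the most reads. Its level was 72.2, 58.5 and 41.5 CPM in islet libraries 2, 4 and 6 and 101, 173 and 134 CPM in fat libraries 2, 4 and 6. Every islet library was below every fat library. That held for 5 of the 45 tested members, a smaller share than the 22.3% of all genes tested. The means were 57.4 ± 15.4 and 136 ± 36.2 CPM (SD, n = 3 per tissue), a log2 difference of -1.24 ± 0.30 (SE) with adjusted p = 0.0206 in edgeR. The call was lost without fat library 4 (adjusted p = 0.0843) or fat library 6 (adjusted p = 0.0722). Alone it supplied 17.3 ± 3.57% of member counts in islet and 23.9 ± 5.44% in fat. Without it the summed fat to islet ratio was 2.03 in place of 2.17.

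Hist1h1e, another somatic linker histone gene, stood at 26.2, 23.2 and 22.1 CPM in the islet libraries and 38.4, 71.1 and 52.3 CPM in the fat libraries. The islet libraries lay close together and all below fat. The log2 difference was -1.18 ± 0.29 with adjusted p = 0.0223 in edgeR. The call was lost without islet library 2 (adjusted p = 0.0505), fat library 4 (0.0956) or fat library 6 (0.0772). Hist1h2be, whose annotation overlaps it, stood at 1.61, 9.17 and 1.75 CPM in islet and 7.57, 13.8 and 9.29 CPM in fat. These tissues overlapped at islet library 4, and its log2 difference of -1.34 ± 0.72 was not called (adjusted p = 0.239), although without islet library 4 it was -2.59 with adjusted p = 0.0129.

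The other somatic H1 genes leaned the same way with more spread. Hist1h1d stood at 19.4, 36.1 and 19.4 CPM in islet and 25.8, 84.0 and 29.9 CPM in fat. Hist1h1b stood at 6.85, 15.2 and 4.85 CPM in islet and 14.9, 39.7 and 15.1 CPM in fat, and Hist1h1a at 4.03, 11.5 and 3.77 against 9.74, 21.9 and 8.82. In all 3 genes library 4 was the highest in both tissues, and islet library 4 exceeded the lowest fat library. The log2 differences were -0.91 ± 0.49 for Hist1h1d, -1.40 ± 0.56 for Hist1h1b and -1.10 ± 0.59 for Hist1h1a, with edgeR adjusted p = 0.243, 0.123 and 0.239. Without fat library 4 they were -0.23, -0.83 and -0.61. With the animal as a block Hist1h1b was called (adjusted p = 0.0403). Hist1h1t, the testis linker histone gene, had no islet count and reached 0.353 CPM at most in fat, and was not tested.

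Among core histone genes, Hist1h2ag, an H2A gene, was the only call. It had no count in any islet library and 13, 11 and 22 counts in fat libraries 2, 4 and 6, or 1.23, 1.46 and 2.59 CPM. It passed the filter on low counts through the fat libraries alone. Against a floor of 3 counts per islet library it was at least 2.82-fold lower in islet, with adjusted p = 0.0338 in edgeR. It was the 1 tested member whose highest fat value was not in library 4. The call was lost with the animal as a block (adjusted p = 0.143), without islet library 2 (0.0642) or without fat library 2 (0.126), and 78.9% of its 50-base stretches occur in another gene.

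The H2A genes with the most reads did not separate the tissues. Hist2h2ac stood at 21.2, 6.02 and 33.3 CPM in islet and 12.0, 35.4 and 10.1 CPM in fat, with a log2 difference of 0.09 ± 0.65 and adjusted p = 0.941. Hist1h2ak had the same arrangement, at 18.1, 3.44 and 22.9 CPM against 13.5, 26.9 and 12.5 CPM (log2 difference -0.23 ± 0.61, adjusted p = 0.835). In both genes islet library 4 was the lowest and fat library 4 the highest of all. Hist1h2af went the other way within islet, at 5.24, 17.5 and 5.12 CPM with library 4 highest, against 15.1, 26.8 and 8.47 CPM in fat (log2 difference -0.88 ± 0.61, adjusted p = 0.367). Hist2h2ab had the largest positive estimate of any member, 1.09 ± 0.71 with adjusted p = 0.333. The median over 11 tested H2A genes was -0.33.

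The H2B genes had a median log2 difference of -1.12 over 10 tested, with 8 negative and 0 called in edgeR, 2 lower at an unadjusted p under 0.05. Hist1h2bc stood at 8.26, 8.03 and 6.47 CPM in islet and 11.1, 29.5 and 13.3 CPM in fat. All its islet libraries were below fat, and its log2 difference was -1.24 ± 0.45 with adjusted p = 0.0932. Hist1h2bg also separated the tissues, at 1.01, 4.01 and 2.02 CPM against 4.35, 10.6 and 8.59 CPM, with -1.77 ± 0.67 and adjusted p = 0.103. DESeq2 called both, with adjusted p = 0.0437 and 0.0389. Hist1h2bn overlapped slightly, at 3.83, 6.31 and 4.58 CPM against 8.42, 22.2 and 5.65 CPM (log2 difference -1.30 ± 0.58, adjusted p = 0.160).

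H3 and H4 genes gave 0 calls in edgeR, DESeq2 and limma voom. At an unadjusted p under 0.05 in edgeR there were 0 of 9 H3 genes and 1 of 10 H4 genes, Hist1h4d. Hist1h4d stood at 34.3, 20.6 and 19.8 CPM in islet and 35.8, 58.6 and 33.2 CPM in fat. Only islet library 2 reached the fat range, and the log2 difference was -0.77 ± 0.34 with adjusted p = 0.154. Hist1h4c stood at 13.5, 3.44 and 10.8 CPM against 13.0, 28.9 and 7.18 CPM, and Hist1h4h at 3.83, 5.45 and 6.87 CPM against 6.34, 17.5 and 5.76 CPM. Both overlapped between tissues. Among H3 genes Hist1h3b stood at 6.25, 11.5 and 8.35 CPM against 6.43, 18.0 and 9.18 CPM, and Hist1h3e at 5.85, 6.88 and 9.16 CPM against 6.43, 17.2 and 8.82 CPM. Hist1h3d had a positive estimate, at 8.06, 8.03 and 6.74 CPM against 4.26, 8.36 and 4.24 CPM (log2 difference 0.44 ± 0.48, adjusted p = 0.583). The class medians were -0.53 for H3 and -0.79 for H4.

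**Figure D4:**
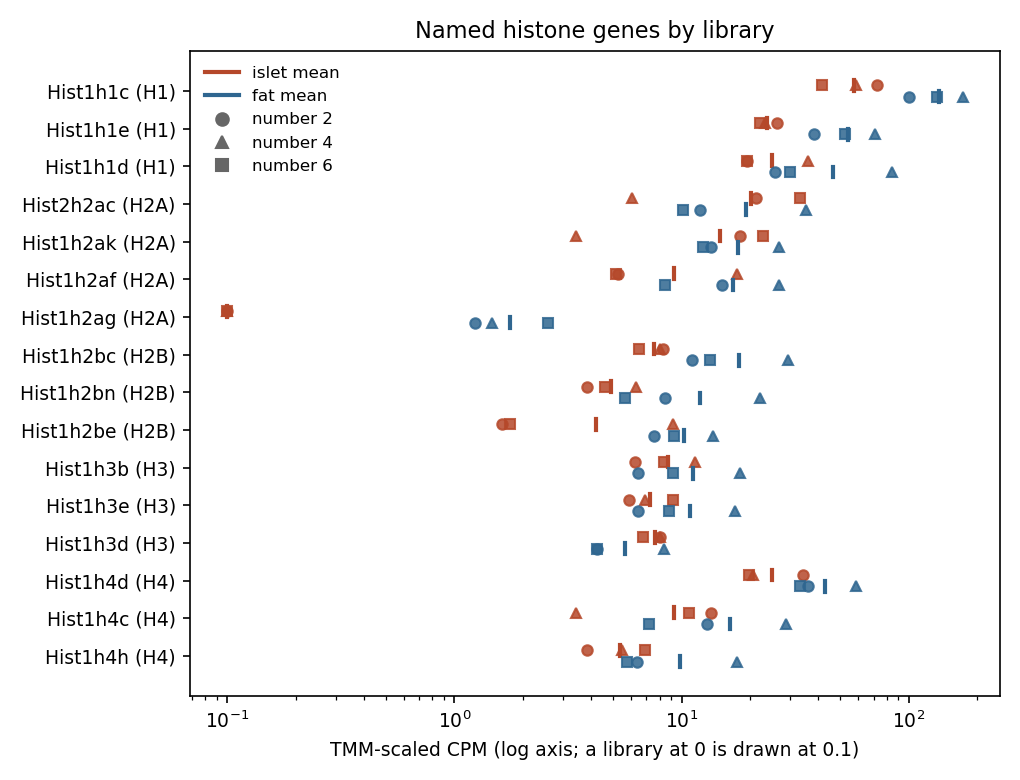
TMM-scaled CPM on a log axis for 16 named members, with islet libraries in red, fat libraries in blue, marker shapes for the animal number and short vertical lines for tissue means. Hist1h1c, Hist1h1e, Hist1h2ag and Hist1h2bc have no overlap between tissues, and fat library 4 is the highest fat value in every gene shown except Hist1h2ag.

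Levels can be set against each other only per length of exon. In CPM per kilobase, Hist2h2ac (38.8 in islet and 36.9 in fat), Hist1h2ak (37.7 and 44.9) and Hist1h1c (36.8 and 87.0) had like islet means. Single islet libraries 2, 4 and 6 spread widely, at 40.7, 11.6 and 64.0 for Hist2h2ac and 46.2, 8.75 and 58.3 for Hist1h2ak. For Hist1h1c they were 46.3, 37.5 and 26.6. In fat Hist1h1c had the highest mean of these genes. Means in islet and fat were 23.3 and 42.1 for Hist1h2af, 21.9 and 37.4 for Hist1h4d and 12.4 and 28.0 for Hist1h1e. The long annotated ends of the H1 genes lower their values on this scale.

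The 25 members that were not tested include 6 with no count in any library and 19 with counts that did not pass the filter. The highest count among them was 84, for Hist1h4f in fat library 4, or 11.1 CPM against 1.04 and 1.29 CPM in fat libraries 2 and 6. By cluster, the medians were -0.83 over 38 tested Hist1 genes and 0.09 over 5 tested Hist2 genes. The difference between clusters was not tested.

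Fat library 4 was singled out after its values were seen. It held the highest of the 3 fat values for 44 of 45 tested members, against 33.0% of all genes tested. The ratio of fat library 4 to the mean of fat libraries 2 and 6 had a median of 2.28 over the members, and 29 of 45 (64.4%) reached 2-fold, against 2.66% of all genes. The excess was 1.48-fold for Hist1h1c and 1.56-fold for Hist1h1e, the called H1 genes. It was 2.29-fold for Hist1h1a, 2.59-fold for Hist1h1b and 2.98-fold for Hist1h1d. A smaller spread between fat libraries itself favours a call, so nothing is drawn from this order. The 5 tested members reported with poly(A) tails were also all highest there among fat libraries, with a median ratio of 1.75. RNAs without poly(A) tails from outside the histone genes stood higher still. All 9 tested were highest in that library among fat libraries, with a median ratio of 4.00. Rn7sk, an RNA that restrains transcription elongation, was 4.00-fold and Rmrp, the RNA of RNase MRP, 5.29-fold. Replication-independent histone variants had a median ratio of 1.12, S phase genes 1.03 and mitosis genes 0.956. Summed S phase genes were 552, 534 and 557 ppm in fat libraries 2, 4 and 6, or 482, 528 and 502 TMM-scaled CPM, so whether library 4 was the highest turned with the scale. Summed mitosis genes were lowest in fat library 4 on both scales, at 316, 264 and 343 ppm and 276, 261 and 309 TMM-scaled CPM. The part of the tail-free RNAs in the result was not tested. Without this library 0 members were called.

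**Figure D5:**
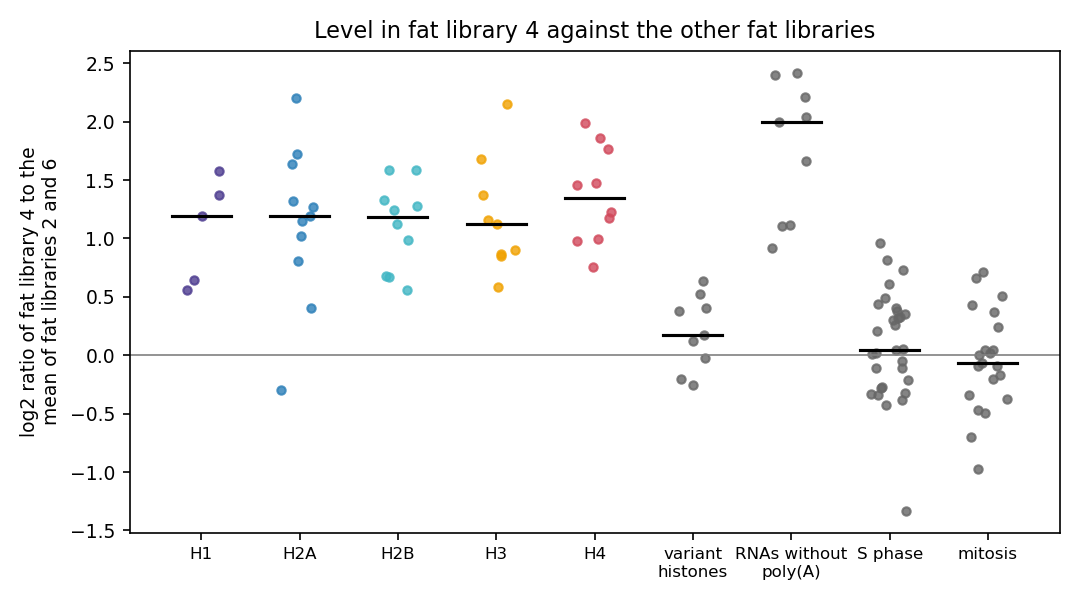
Log2 ratio of fat library 4 to the mean of fat libraries 2 and 6 for each tested gene, by histone class and comparison list, with the median as a line. Every histone class has a median above 1.1, RNAs without poly(A) tails sit higher, and histone variants, S phase and mitosis genes lie around 0.

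The islet libraries also differed among themselves. Islet library 6 held the lowest of the 3 islet values for 25 of 45 tested members, and 9 tested members had no count there although it was the deepest islet library. The same shares over all genes tested were not counted, so neither number is read as a trait of the histone genes. The summed RNAs without poly(A) tails were 6256, 5945 and 3041 ppm in the islet and 4842, 14322 and 2537 in the fat macrophage libraries. They did not separate the tissues, and 0 of 9 such genes were called in edgeR, DESeq2 or limma voom, with 0 at an unadjusted p under 0.05. The part of these RNAs' variation in the histone differences was not tested.

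The replication-independent variants set a comparison for the H1 genes. H1f0, the linker histone gene of non-dividing cells, stood at 8.87, 20.4 and 20.1 CPM in islet and 60.1, 58.5 and 74.7 CPM in fat. The tissues lay far apart, with a log2 difference of -1.97 ± 0.35 and adjusted p = 0.00530 in edgeR, and it was called in all 15 alternative fits. It was the 1 call among 9 tested variants, whose median was -0.28. H3f3b, the most abundant of them, stood at 1352, 970 and 547 CPM against 888, 1052 and 981 CPM (log2 difference -0.03 ± 0.36, adjusted p = 0.969). H3f3a stood at 173, 139 and 164 CPM against 167, 243 and 170 CPM and was not called (adjusted p = 0.483). Linker histone genes of both kinds were therefore the histone genes that passed the test as lower in islet, apart from Hist1h2ag.

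Of 15 tested genes for histone messenger RNA processing, 1 was lower and 1 higher. Slbp, whose protein binds the stem-loops printed above, was lower in islet, at 28.6, 18.4 and 24.1 CPM in the islet and 52.5, 56.1 and 37.6 CPM in the fat libraries. All islet libraries were lower, with a log2 difference of -1.04 ± 0.28 and adjusted p = 0.0336. Cstf2, a cleavage factor shared with poly(A) site processing, was higher in islet at 35.9, 54.8 and 44.7 CPM against 24.6, 25.3 and 25.1 CPM (log2 difference 0.85 ± 0.26, adjusted p = 0.0479). Both calls were lost with the animal as a block (adjusted p = 0.0587 and 0.0951), without islet library 4 (0.0555 and 0.0827) and without any 1 fat library. Cstf2 was also lost with RLE factors (adjusted p = 0.0609), upper-quartile factors (0.0609), no filter (0.114) and no mitochondrial ribosomal RNA (0.0585). Rnu7, the U7 RNA gene, had no count.

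Of 18 tested histone chaperone genes, Nap1l1, which carries H2A and H2B, was the 1 call, at 506, 589 and 245 CPM in islet and 159, 178 and 163 CPM in fat (log2 difference 1.42 ± 0.34, adjusted p = 0.0202). It was higher in islet, opposite in sign to most histone genes, and the call was lost without islet library 2 (adjusted p = 0.0659) or without any 1 fat library. With islet library 6 alone left in islet, the log2 difference was 0.48 (adjusted p = 0.107).

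The cell cycle lists held few single calls, and the summed mitosis genes were lower in islet. The mitosis sums were 195, 187 and 217 ppm in the islet and 316, 264 and 343 ppm in the fat macrophage libraries, a fat to islet ratio of 1.54, and did not overlap on the ppm or the TMM-scaled CPM scale. Without fat library 4 that ratio was 1.65 for mitosis genes, 1.65 for the summed histone members and 1.11 for S phase genes. By TMM-scaled CPM these were 1.34, 1.33 and 0.886. The S phase sums overlapped between tissues, at 450, 623 and 422 ppm against 552, 534 and 557 ppm. Of 30 tested S phase genes 1 was higher in islet and 0 lower, with a median log2 difference of 0.13. The call was Cdt1, which licenses replication origins, at 46.8, 8.31 and 37.9 CPM against 7.47, 10.4 and 4.59 CPM (2.06 ± 0.60, adjusted p = 0.0434). It rested on islet libraries 2 and 6, since islet library 4 lay within the fat range, and was lost with the animal as a block (adjusted p = 0.107), in limma voom (0.0557), without islet library 2 (0.139) and without any 1 fat library. Of 21 tested mitosis genes 0 were called in edgeR, 2 were lower at an unadjusted p under 0.05, and the median was -0.36. DESeq2 and limma voom each called 1 of them, Cenpf, as lower. Mki67, the proliferation marker, had a log2 difference of -0.64 ± 0.36 with adjusted p = 0.268. The difference between the H1 genes and the cell cycle lists was not tested.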

How the data were processed

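The authors deposited raw counts for each gene, without normalisation. The submitters' processing notes name GRCm38, STAR, featureCounts and Subread 1.6.4. No label gives the annotation, strand or multi-mapping settings. Libraries were made with a stranded total RNA kit, per the labels' protocols. Total counts were 4089980 to 9235591 per library, and mitochondrial ribosomal RNA took 4.72% to 15.2%. Precision of a share is an exact (Clopper-Pearson) 95% interval, and the floor is 3 counts.

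The fits used edgeR 4.0.16 in R 4.3.3, with filterByExpr grouped by tissue, TMM factors and robust quasi-likelihood tests of islet minus fat, with Benjamini-Hochberg adjustment over 12152 genes at 0.05. Alternatives were DESeq2 1.42.0, limma voom 3.58.1, RLE factors, upper-quartile factors, no filter, a 1 CPM filter, the animal as a block, mitochondrial ribosomal RNA left out, each library left out, and islet libraries 2 and 4 left out. Fits were also run on simulated counts drawn gene by gene. These held no shift shared by genes within a library, so they do not check the histone calls. Gene IDs were matched to GENCODE M21 (99.6%), and 2 members by symbol. Motifs and stem-loops were searched by letters.

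Equal numbers were taken as 1 animal, since the design text speaks of autologous tissues. Deviations from tissue means correlated across genes at 0.046, 0.063 and -0.00759 for equal numbers 2, 4 and 6 and at -0.142 to 0.103 for other pairs. P-values measure the spread between these libraries. Batch names follow the numbers in both tissues, so the block is also the batch term.

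The members, lists and tests were chosen with earlier results of these data known. Named members were all those called and the 3 highest in mean CPM per class, and in the other lists up to 3 called genes per direction and the 2 highest. Hist1h1a, Hist1h1b, Hist1h1t, Hist1h2bg, Hist2h2ab, Hist1h4f, Cenpf and Rmrp were named after their values were seen.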

Additional observations from a re-analysis of the deposited data

How the results depend on the processing

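Members called numbered 3 in the reported fit, 5 with DESeq2, 9 with no filter, 16 without islet libraries 2 and 4, where the lone islet library was assumed to vary like the others, and 0 to 9 when each library was left out, all lower in islet. The replicate block also gave 3, with Hist1h1b in place of Hist1h2ag. Variant calls were 3 without islet libraries 2 and 4 and 1 to 2 with a library left out. Processing calls were 1 with RLE, upper-quartile factors, no filter or no mitochondrial ribosomal RNA, 0 with the replicate block and 0 to 2 with a library left out. Chaperone calls were 2 with DESeq2, 3 with no filter, 6 without islet libraries 2 and 4 and 0 to 3 with a library left out. S phase calls were 0 with voom or the block, 2 with no filter, 5 without islet libraries 2 and 4 and 0 to 3 with a library left out. Mitosis calls were 1 with DESeq2, voom or no filter, 4 without islet libraries 2 and 4 and 0 to 1 with a library left out. Tail-free RNA calls were 2 without islet libraries 2 and 4. The causes were not tested. The summed ratio by share of counts was 1.65 to 2.45 with a library left out, and by TMM-scaled CPM 1.84, or 1.33 without fat library 4. The log2 difference, islet minus fat, turned sign for Hist1h2ak (0.31 without islet libraries 2 and 4, -0.68 to 0.22 with a library left out), Hist1h3b (-0.67 to 0.084), Hist2h2ac (-0.47 to 0.80), H3f3b (-0.37 to 0.25), Rn7sk (-0.68 to 0.65), Mcm3 (-0.17 without islet libraries 2 and 4, -0.041 to 0.63), Adgre1 (-0.16 without islet libraries 2 and 4), Rpph1 (0.12 with voom, 0.13 with the block, -0.69 to 0.82) and Top2a (-0.020 with RLE, -0.019 with DESeq2, -0.17 with voom, -0.031 with no filter, -0.075 with the block, -0.0098 with no mitochondrial ribosomal RNA, -0.9995 without islet libraries 2 and 4, -0.22 to 0.33). That list covers only the genes named by the stated rule and the sorting markers. Other members also turned sign. Among them were Hist1h2ac (0.22), Hist1h2ai (0.03) and Hist1h2an (0.68) without fat library 4, and Hist1h2bk (-1.18) without islet library 6. The median of all genes shifted by -0.31 with no filter and by -0.20 without islet libraries 2 and 4. Hist1h2ag was tested in 4 of the 6 fits that left out a library. The filter on low counts left 25 members untested, and the parts of depth and of shared sequence in this were not tested.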
